A study of Homo sapiens with 6 samples.

Results

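Mitophagy is the removal of mitochondria by autophagy, in which a double membrane closes around the organelle and fuses with the lysosome. Receptors such as BNIP3, BNIP3L (also known as NIX) and FUNDC1 sit in the outer mitochondrial membrane and bind the small ATG8 proteins on the growing autophagosome directly. In the other route, the kinase PINK1 marks damaged mitochondria with phosphorylated ubiquitin, and adaptors such as OPTN and SQSTM1 link this ubiquitin to ATG8 proteins, of which MAP1LC3B and GABARAPL1 are examples. BNIP3 and BNIP3L are known as target genes of the hypoxia-inducible factors, and FUNDC1 is known as a receptor whose activity in low oxygen is set by phosphorylation.

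These 8 genes were taken by symbol from a table of 21776 genes, and all 8 were found, each listed as protein coding. The Entrez numbers in the table are 664 for BNIP3, 665 for BNIP3L, 139341 for FUNDC1, 65018 for PINK1, 10133 for OPTN, 8878 for SQSTM1, 81631 for MAP1LC3B and 23710 for GABARAPL1. All 8 passed the filter on low counts that left 14255 genes for testing. In the GO terms deposited beside the counts, 6 of the 8 carry "autophagy of mitochondrion", a term held by 0.314% of the 12420 tested genes with any term; BNIP3L and OPTN do not carry it there. "Cellular response to hypoxia" is listed for 3 of them, BNIP3, BNIP3L and PINK1, against 0.700% of those genes. The 8 genes were picked as mitophagy receptors and partners, so these terms describe the choice of genes and are not a result.

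The RNA came from wild-type cells labelled SCC25, an established line from a human oral squamous cell carcinoma, kept for 12 h in 1% O2 and 5% CO2 balanced with N2 (hypoxia) or in air with 5% CO2 (normoxia). A figure legend of the study names the line SCC9 instead. Each condition has 3 libraries, and nothing states that they came from separate cultures, so the p-values measure the spread between these libraries, which may be technical. The hypoxia libraries held 30186813, 36076088 and 32272716 counts and the normoxia libraries 37278703, 29637189 and 29981208, listed here and in what follows as replicates 1, 2 and 3. In such bulk RNA, a change in the number of expressing cells and a change in RNA per cell cannot be told apart.

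The labels were checked against marker genes. CA9, NDRG1, VEGFA, ADM, EGLN3 and PDK1, known to respond to hypoxia, were all higher in every hypoxia library, with log2-fold changes from 1.80 to 6.69. Of 5 markers of squamous epithelium, 4 were detected. The most abundant, CDH1, went from 188 ± 10.9 CPM in normoxia to 479 ± 4.85 CPM under hypoxia (SD, n = 3, log2-fold change 1.35, called higher), and KRT17 from 8.18 ± 0.327 to 17.0 ± 1.41 CPM (1.06, called higher). KRT5 went from 126 ± 9.90 to 111 ± 5.49 CPM (-0.18, called lower), and TP63, at 62.7 ± 17.1 and 68.3 ± 3.56 CPM, was not called. The summed list lay between 363 and 428 CPM in normoxia and between 671 and 678 CPM under hypoxia. KRT14, a defining keratin of basal squamous cells, was listed at 0 counts in 5 libraries and at 1 count in normoxia replicate 2. CPM are counts scaled by the normalised library total. Of the 4 leukocyte markers in the table only CD68, the most abundant, exceeded 1 CPM, while PTPRC, CD3E and LYZ had at most 2 counts in any library, and the summed list lay between 27.3 and 34.2 CPM in all 6 libraries. The 3 endothelial markers, of which CDH5 was the most abundant, summed to 1.24 to 1.54 CPM in hypoxia and 0.296 to 0.744 CPM in normoxia. Of the 3 fibroblast markers, COL3A1 and DCN had at most 4 counts in any library, whereas COL1A1 rose from 3.76 ± 1.17 to 18.0 ± 2.02 CPM (SD, n = 3). The part of these lists in the results was not tested.

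For the members with the largest rise and the largest fall that had an entry, the 250 bases before the gene start are given from RefSeq (GRCh38.p14), 5′ to 3′ on the strand of the gene. The RefSeq promoter table held windows for BNIP3, FUNDC1, OPTN, SQSTM1, MAP1LC3B and GABARAPL1, 6 of the 8 genes. Capitals mark ACGTG on either strand, the core letters of the element that hypoxia-inducible factors bind. The BNIP3 window is chr10:131981924-131982173 on the minus strand, and the FUNDC1 window is chrX:44542860-44543109, also on the minus strand.
BNIP3: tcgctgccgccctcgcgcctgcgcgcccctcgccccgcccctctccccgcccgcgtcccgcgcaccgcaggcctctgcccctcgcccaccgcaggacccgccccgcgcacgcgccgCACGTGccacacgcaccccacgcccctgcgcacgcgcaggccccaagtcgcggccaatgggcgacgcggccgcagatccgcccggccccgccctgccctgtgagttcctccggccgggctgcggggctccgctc
FUNDC1: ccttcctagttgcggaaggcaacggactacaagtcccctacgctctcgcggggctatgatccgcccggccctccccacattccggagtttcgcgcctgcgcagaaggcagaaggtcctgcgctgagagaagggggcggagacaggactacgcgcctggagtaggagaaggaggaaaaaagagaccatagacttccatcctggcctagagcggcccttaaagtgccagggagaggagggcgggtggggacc

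In BNIP3 the letters ACGTG occurred once on each strand, as the overlapping palindrome CACGTG that begins 134 bases before the start. Of all 35116 windows of this length, 18.5% held ACGTG on either strand, and of the 16083 windows of tested genes 22.1% did. A second spelling of the core, GCGTG, occurred 4 times in the BNIP3 window and 4 times in that of MAP1LC3B, and 32.2% of all windows and 42.9% of those of tested genes held it. Neither spelling was found in the windows of FUNDC1, OPTN, SQSTM1 or GABARAPL1. These matches describe the letters of the windows only.

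Among the 8 genes, 6 were higher and 2 were lower under hypoxia at an adjusted p under 0.05 (edgeR's quasi-likelihood test, Benjamini-Hochberg over all genes tested). Calls were common in this comparison, with 39.2% of all genes tested higher and 38.5% lower, so that 77.8% were called. Their log2-fold changes had a median of 0.98, beside 0.023 for every gene tested. BNIP3L, BNIP3, OPTN, GABARAPL1, PINK1 and MAP1LC3B were higher, in this order of size, and FUNDC1 and SQSTM1 were lower. For all 8 the libraries of one condition lay apart from those of the other, which held for 80.5% of the genes tested.

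**Figure D1:**
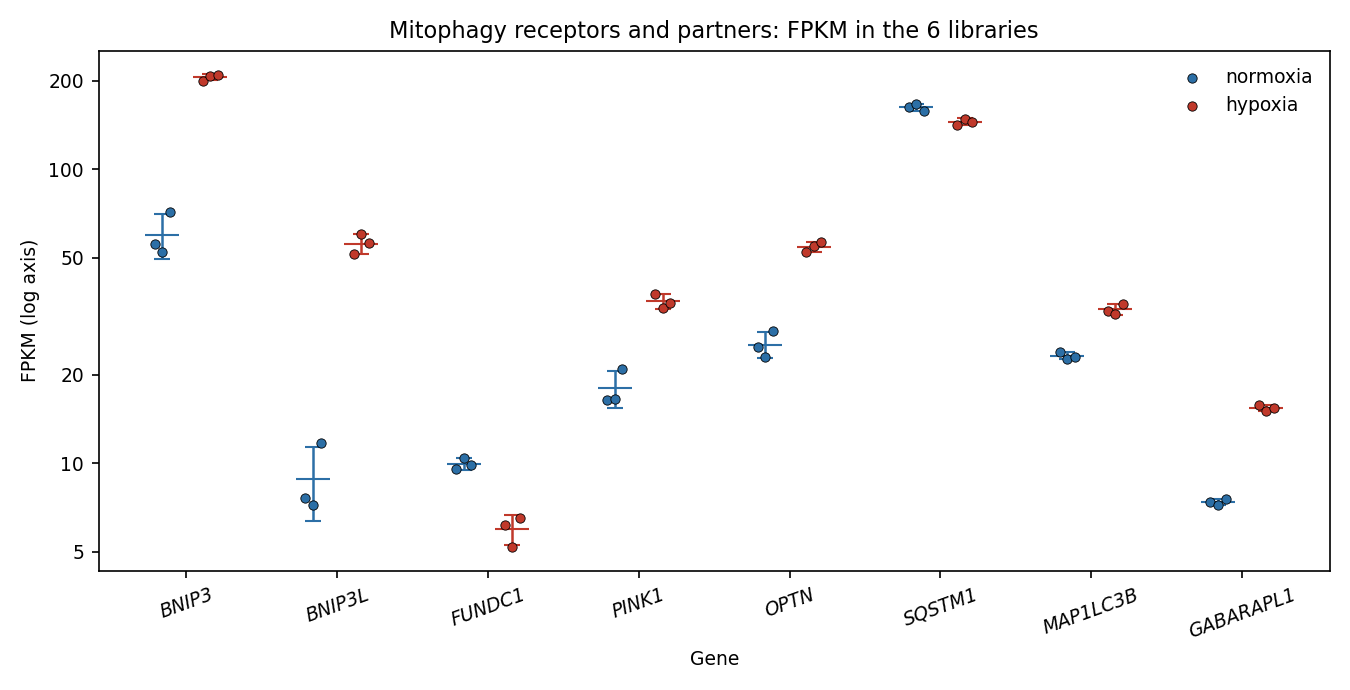
FPKM (fragments scaled by gene length and library total, log axis) of the 8 genes in each library, with normoxia in blue and hypoxia in red; horizontal lines are means and error bars are SD over 3 libraries. BNIP3 moves from 59.8 to 206 FPKM and BNIP3L from 8.83 to 55.9, while FUNDC1 and SQSTM1 lie lower under hypoxia.

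BNIP3L, a receptor also known for clearing mitochondria from maturing red cells, showed the largest change of the 8. It measured 182, 207 and 198 CPM across the hypoxia libraries, against 27.1, 26.5 and 42.2 CPM across the normoxia libraries. The lowest hypoxia library was far above the highest normoxia library, normoxia replicate 3. The log2-fold change was 2.62 (SE 0.123, with an adjusted p of 3.74e-12 in edgeR), a 6.14-fold increase, and 4.95% of the genes tested rose more.

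BNIP3, its closest relative, encodes a receptor of the same type with a BH3-like motif. It stood at 305, 310.2 and 321 CPM across the hypoxia libraries, against 85.7, 83.7 and 112 CPM across the normoxia libraries. The hypoxia libraries lay close together and far above normoxia. The log2-fold change was 1.74 (SE 0.084, with an adjusted p of 5.37e-12 in edgeR), or 3.33-fold, and 10.8% of the genes tested rose more. BNIP3 has 39 pseudogenes in GENCODE v29, of which the count table lists 0, and how reads that match several copies were counted is not given in the sources used here, so its level is uncertain to that extent.

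The rise of BNIP3L exceeded that of BNIP3. The ratio of BNIP3 to BNIP3L CPM was 1.68, 1.496 and 1.62 across the hypoxia libraries, against 3.17, 3.15 and 2.65 across the normoxia libraries. Every hypoxia library had a lower ratio than every normoxia library, and on the log2 scale the difference was -0.90 (p = 0.1 in an exact two-sided permutation test, as low as 3 against 3 libraries can reach). In FPKM, which takes gene length into account, the level of BNIP3 was still 3.69 ± 0.218 times that of BNIP3L under hypoxia and 6.90 ± 0.674 times in normoxia (SD, n = 3).

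FUNDC1 moved the other way from BNIP3 and BNIP3L. It had 6.42, 5.30 and 6.84 CPM across the hypoxia libraries, against 10.1, 11.4 and 10.5 CPM across the normoxia libraries, from 196 to 375 counts per library. All hypoxia libraries were below all normoxia libraries. The log2-fold change was -0.79 (SE 0.130, with an adjusted p of 3.00e-05 in edgeR), and 16.2% of the genes tested fell more.

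PINK1, the kinase that starts the ubiquitin route, measured 99.2, 86.5 and 93.0 CPM across the hypoxia libraries, against 43.6, 45.6 and 56.4 CPM across the normoxia libraries. It rose 1.91-fold, a log2-fold change of 0.94 (SE 0.082, with an adjusted p of 1.18e-08 in edgeR), with no overlap between the conditions. Of the genes tested, 21.4% rose more. In GENCODE v29, 39.4% of its 4836 exonic bases are shared with PINK1-AS on the opposite strand, a gene that the count table does not list. The deposited counts and FPKM fit a gene length of 2657 bases, so the overlap within the counted gene is not known. Whether the counting used the strand is not given in the sources used here, so reads of the sense and antisense genes cannot be told apart.

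OPTN, an adaptor that is phosphorylated by TBK1, had 187, 193 and 203 CPM across the hypoxia libraries, against 90.05, 86.5 and 103 CPM across the normoxia libraries. Its log2-fold change was 1.06 (SE 0.065, with an adjusted p of 9.97e-11 in edgeR), a 2.08-fold increase, and 19.0% of the genes tested rose more. SQSTM1, an adaptor that is itself degraded by autophagy and induced by oxidative stress, had 455, 471 and 472 CPM across the hypoxia libraries, against 534, 565 and 523 CPM across the normoxia libraries. This was a small decrease, with a log2-fold change of -0.21 (SE 0.050, with an adjusted p of 0.000882 in edgeR), although no hypoxia library reached the lowest normoxia library. Of the genes tested, 39.2% fell more. With only genes of at least 10 counts in every library, the log2-fold change of SQSTM1 was -0.14 (adjusted p of 0.0173 in edgeR). SQSTM1 shares 1582 exonic bases with MRNIP on the opposite strand, which had 6.89 ± 0.576 CPM in hypoxia and 3.41 ± 0.425 CPM in normoxia (SD, n = 3). It shares a further 105 exonic bases with MGAT4B, also on the opposite strand, which had 216 ± 4.74 CPM in hypoxia and 217 ± 4.93 CPM in normoxia and was not called. SQSTM1 has 7654 exonic bases in GENCODE v29, while its deposited counts and FPKM fit a gene length of 3263 bases. How many reads of MRNIP and MGAT4B were counted for SQSTM1 was not tested.

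MAP1LC3B encodes the ATG8 protein most used as a marker of autophagosomes. It had 70.1, 66.9 and 74.3 CPM across the hypoxia libraries, against 51.4, 50.4 and 49.99 CPM across the normoxia libraries. The log2-fold change was 0.48 (SE 0.059, with an adjusted p of 9.79e-07 in edgeR), and 32.5% of the genes tested rose more. Its near-identical copy MAP1LC3B2 was listed at only 1.68 CPM in hypoxia and 1.41 CPM in normoxia. GABARAPL1, of the second branch of ATG8 proteins, had 36.0, 33.8 and 35.4 CPM across the hypoxia libraries, against 17.1, 17.2 and 17.7 CPM across the normoxia libraries. Its log2-fold change was 1.02 (SE 0.074, with an adjusted p of 1.05e-09 in edgeR), a 2.02-fold increase from tightly grouped libraries. Of the genes tested, 19.8% rose more. In GENCODE v29, GABARAPL1 shares 329 exonic bases (8.05%) with AC115676.1 on the opposite strand. Neither AC115676.1 nor GABARAPL3 has listed counts, and how many of their reads were counted for GABARAPL1 was not tested. The ratio of GABARAPL1 to MAP1LC3B CPM rose from 0.343 ± 0.0105 to 0.498 ± 0.0193 (SD, n = 3), a log2 difference of 0.54 without overlap (p = 0.1 in the same exact permutation test).

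Normoxia replicate 3 lay at an end of the normoxia range for most of these genes. Among 3 libraries any one is often at an end. No share over all genes tested and no count for the other normoxia libraries was taken, so this is a description only. It was the highest normoxia library for BNIP3, BNIP3L, PINK1, OPTN and GABARAPL1, and also for 5 of the 6 hypoxia markers, with CA9 at 67.7 CPM against 32.2 and 27.3 CPM in normoxia replicates 1 and 2. It was the lowest normoxia library for SQSTM1, MAP1LC3B and the hypoxia marker ADM. For GABARAPL1 its 17.7 CPM was close to the 17.1 and 17.2 CPM of the others. Without this library the log2-fold changes were 1.86 for BNIP3, 2.85 for BNIP3L, 1.04 for PINK1, 1.12 for OPTN and 1.01 for GABARAPL1. The coefficient of variation in normoxia was 27.9% for BNIP3L and 16.8% for BNIP3, against 1.40% for MAP1LC3B and 1.77% for GABARAPL1.

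Levels were then ordered between genes in FPKM. Under hypoxia, BNIP3 came first with 206 ± 4.74 FPKM (SD, n = 3), followed by SQSTM1 (145 ± 3.86), BNIP3L (55.9 ± 4.23), OPTN (54.4 ± 2.10), PINK1 (35.5 ± 2.10), MAP1LC3B (33.3 ± 1.35), GABARAPL1 (15.4 ± 0.345) and FUNDC1 (5.96 ± 0.696). The libraries of BNIP3L and OPTN overlapped, as did those of PINK1 and MAP1LC3B, and the other neighbours in this order did not. In normoxia the order was SQSTM1 (163 ± 4.44), BNIP3 (59.8 ± 10.3), OPTN (25.3 ± 2.55), MAP1LC3B (23.2 ± 0.631), PINK1 (18.0 ± 2.59), FUNDC1 (9.94 ± 0.454), BNIP3L (8.83 ± 2.49) and GABARAPL1 (7.39 ± 0.176). Here OPTN overlapped MAP1LC3B, FUNDC1 overlapped BNIP3L, and BNIP3L overlapped GABARAPL1. BNIP3 thus passed SQSTM1, and BNIP3L went from the level of FUNDC1 to that of OPTN.

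The make-up of each functional group was described from the same FPKM. Over 9 receptor genes, summed FPKM were 384 ± 8.33 in normoxia and 613 ± 9.71 under hypoxia (SD, n = 3). BNIP3 made up 15.5% ± 2.33 of this sum in normoxia and 33.5% ± 0.271 under hypoxia, and BNIP3L 2.29% ± 0.592 and 9.11% ± 0.570. FKBP8 held 24.5% ± 0.620 and 28.1% ± 0.244, and its level went from 94.1 ± 4.43 to 172 ± 3.10 FPKM. The share of PHB2, an inner-membrane prohibitin that serves as a receptor once the outer membrane is open, went from 48.9% ± 3.30 to 24.2% ± 0.633. The level of PHB2 itself changed less, from 188 ± 8.79 to 149 ± 2.60 FPKM, as the sum had grown. FUNDC1 contributed 2.59% ± 0.146 in normoxia and 0.972% ± 0.118 under hypoxia. Over 6 ubiquitin-binding adaptors the sum went from 272 ± 2.83 to 328 ± 8.71 FPKM, while SQSTM1 itself went from 163 to 145 FPKM. The other 5 adaptors were all called higher, as were 39.2% of all genes tested. The share of SQSTM1 went from 59.9% ± 2.21 to 44.2% ± 0.0233 and that of OPTN from 9.29% ± 0.842 to 16.6% ± 0.491. Over 7 ATG8 genes the sum went from 126 ± 1.37 to 208 ± 4.72 FPKM, in which GABARAP held the largest share in both conditions (44.3% ± 1.098 and 51.2% ± 0.878), and MAP1LC3B had 18.4% ± 0.654 and 16.05% ± 0.459.

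The other genes of the pathway were read from 7 lists with 63 tested genes in all. At an adjusted p under 0.05 (edgeR), 21 were higher, 24 were lower and 18 were not called, so 33.3% were higher and 38.1% lower beside 39.2% and 38.5% of all genes tested. Their log2-fold changes had a median of -0.0097, close to the 0.023 of every gene tested. A change of at least 1 on the log2 scale was found for 2 higher genes, ULK1 and USP30, and for 5 lower genes, PGAM5, ATG3, MIEF1, MUL1 and ATG101. Of these, ULK1, PGAM5 and ATG3 stayed past this size in all alternatives run for them. Without normoxia replicate 1, USP30 had 0.99 and ATG101 -0.99. On the log2(FPKM + 1) scale, which understates the change of low genes, USP30 had 0.77, ATG101 -0.93, MUL1 -0.93 and MIEF1 -0.90. Over all genes tested, 19.9% were higher and 10.5% lower by this size.

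**Figure D2:**
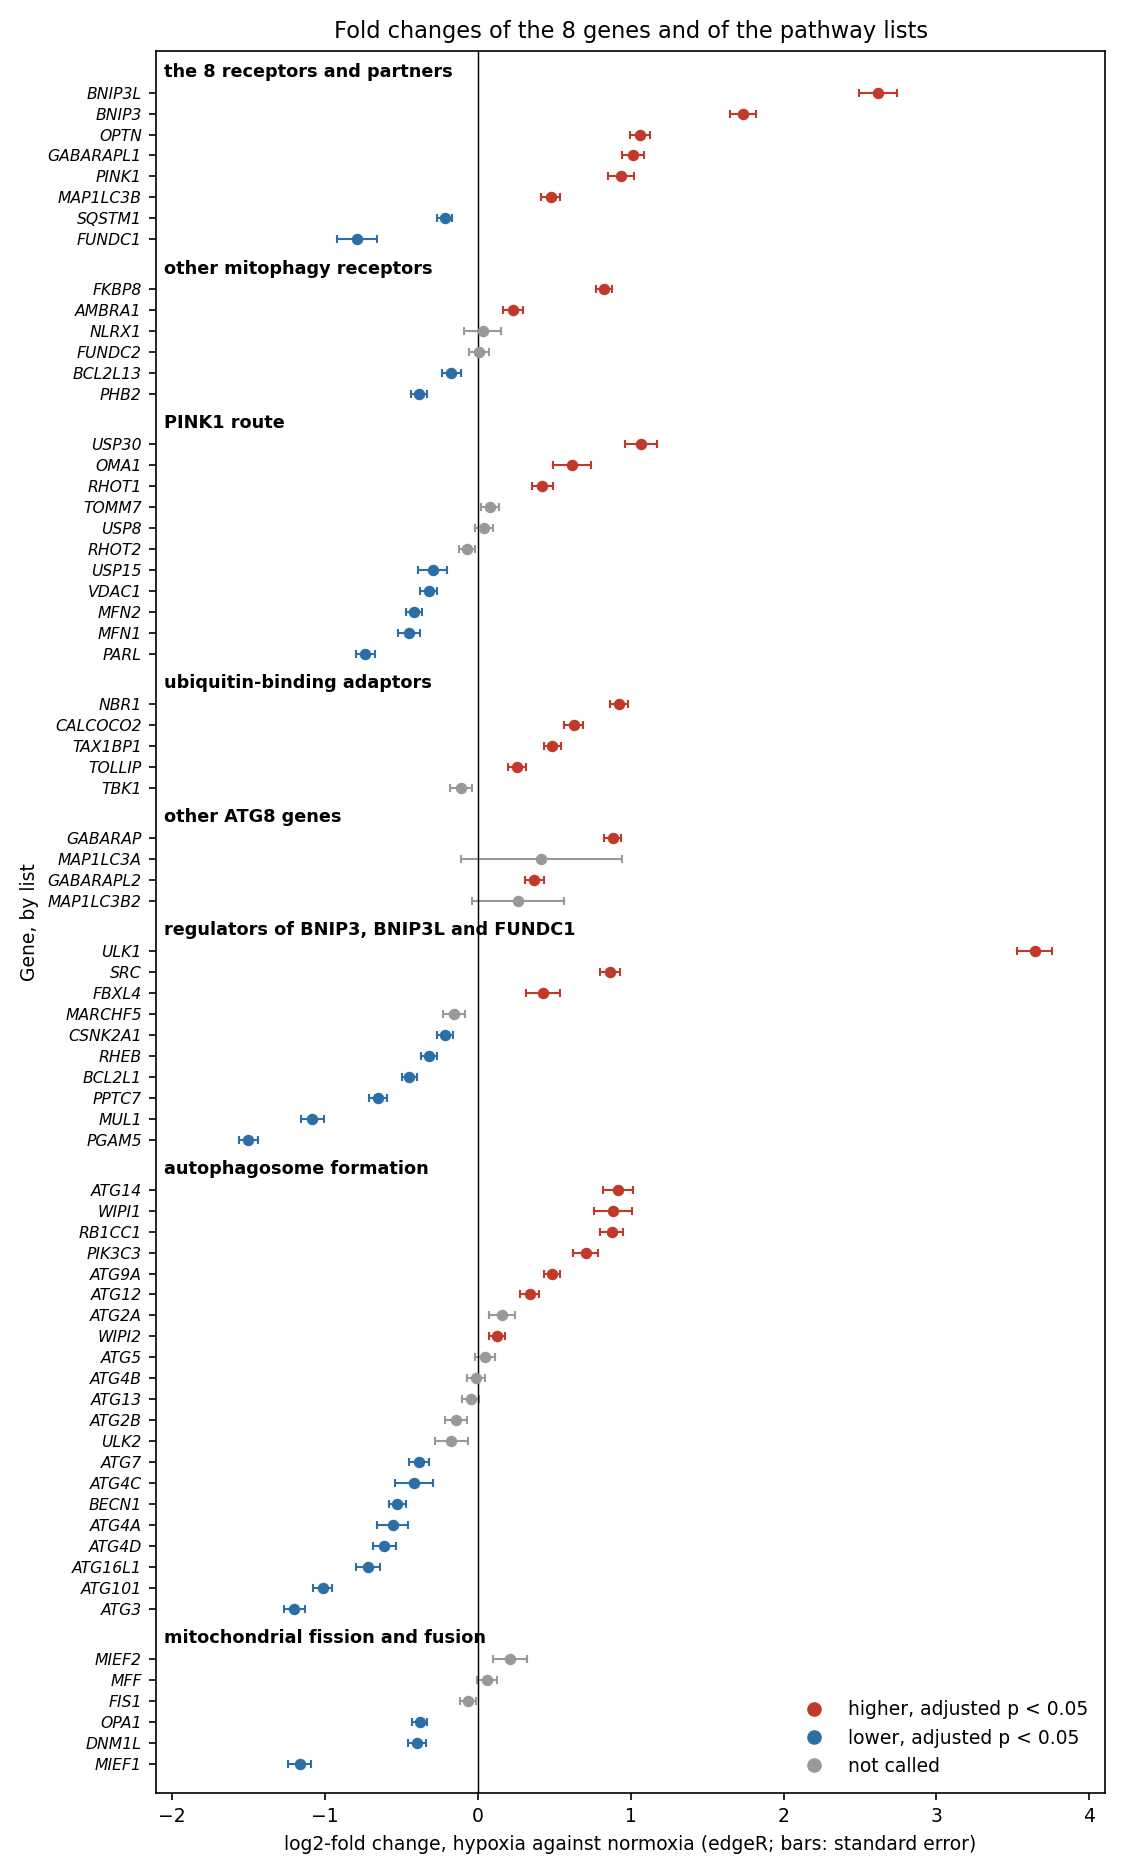
Log2-fold change (hypoxia against normoxia) with its standard error for the 8 genes and the tested genes of 7 pathway lists; red is higher and blue lower at an adjusted p under 0.05, grey is not called. ULK1 at 3.64 and BNIP3L at 2.62 lie farthest to the right and PGAM5 at -1.50 farthest to the left.

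Among 10 genes whose products act on BNIP3, BNIP3L or FUNDC1, 3 were higher, 6 lower and 1 not called. The shares over all genes tested were 39.2% higher and 38.5% lower. ULK1, the kinase that opens autophagy and phosphorylates FUNDC1, had 200.3, 216 and 200.1 CPM across the hypoxia libraries, against 15.9, 12.55 and 20.9 CPM across the normoxia libraries. Its log2-fold change of 3.64 (SE 0.113, with an adjusted p of 3.75e-14 in edgeR) was larger than that of any of the 8 genes, and 2.08% of the genes tested rose more. SRC, a kinase known to phosphorylate FUNDC1 in normoxia, was higher with a log2-fold change of 0.87. PGAM5, the mitochondrial phosphatase that acts on FUNDC1, fell from 125 ± 7.91 to 44.3 ± 2.61 CPM (SD, n = 3), with a log2-fold change of -1.50 (SE 0.063, with an adjusted p of 1.13e-12 in edgeR). CSNK2A1, the catalytic subunit of the kinase that opposes PGAM5 on FUNDC1, was slightly lower at -0.21. MARCHF5, a ubiquitin ligase of FUNDC1, was not called, with a log2-fold change of -0.15 (SE 0.074, with an adjusted p of 0.0661 in edgeR).

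Genes that act on the turnover of BNIP3 and BNIP3L moved in different directions. FBXL4, the substrate receptor of the ubiquitin ligase that brings both proteins to the proteasome, was higher by 0.43 on the log2 scale (SE 0.112, with an adjusted p of 0.00209 in edgeR). PPTC7, a phosphatase that works with FBXL4, was lower, with a log2-fold change of -0.65 (SE 0.0595, with an adjusted p of 2.07e-08 in edgeR). MUL1, an outer-membrane ubiquitin ligase, fell from 42.0 ± 1.54 to 19.9 ± 1.69 CPM (SD, n = 3). BCL2L1, the anti-apoptotic partner of BNIP3, and the small GTPase gene RHEB were lower with log2-fold changes of -0.45 and -0.32.

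Among the 11 tested genes of the PINK1 route, 3 were higher, 5 lower and 3 not called. All genes tested gave 39.2% higher and 38.5% lower. USP30, a deubiquitinase of the outer mitochondrial membrane, rose from 7.71 ± 0.587 to 16.1 ± 0.436 CPM (SD, n = 3), a log2-fold change of 1.07 (SE 0.106, with an adjusted p of 5.89e-08 in edgeR). The proteases of the inner membrane that cut PINK1 differed, since PARL was lower (-0.73) and OMA1 higher (0.62). The outer-membrane proteins MFN1 (-0.45), MFN2 (-0.42) and VDAC1 (-0.32) were lower and RHOT1 (0.42) was higher. USP15 (-0.29), another deubiquitinase, was also lower, while USP8 (0.040) and RHOT2 (-0.069) were not called. TOMM7, which helps to hold PINK1 at the outer membrane, was likewise not called, with a log2-fold change of 0.082 (SE 0.057).

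In the other receptors, FKBP8 and AMBRA1 were higher, BCL2L13 and PHB2 lower, and NLRX1 and FUNDC2 were not called. FKBP8, an outer-membrane receptor, rose from 168 ± 7.39 to 299 ± 3.76 CPM (SD, n = 3), a log2-fold change of 0.83 (SE 0.052, with an adjusted p of 1.35e-10 in edgeR). PHB2 had a log2-fold change of -0.38 and AMBRA1 one of 0.23. FUNDC2, the paralog of FUNDC1, had a log2-fold change of 0.0072 (SE 0.065), unlike FUNDC1 itself.

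In the list of remaining adaptors 4 of 5 genes were higher and among the other ATG8 genes 2 of 4 tested, with 0 lower in both lists, beside the same 39.2% and 38.5%. NBR1 (log2-fold change 0.93), CALCOCO2 (0.63), TAX1BP1 (0.49) and TOLLIP (0.26) were higher, all adaptors that bind cargo and ATG8 proteins. The kinase TBK1, which was listed with them, was not called (-0.11, SE 0.071). GABARAP rose from 74.8 ± 2.23 to 138 ± 5.09 CPM (SD, n = 3), with a log2-fold change of 0.88 (SE 0.054, with an adjusted p of 1.09e-10 in edgeR), and GABARAPL2 was higher by 0.37. MAP1LC3A, at 0.457 CPM in hypoxia and 0.329 CPM in normoxia, and MAP1LC3B2 were not called, and MAP1LC3C had 10 counts in hypoxia replicate 2, 1 count in normoxia replicate 3 and 0 in the others.

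Of 21 genes of autophagosome formation, 7 were higher, 8 lower and 6 not called, beside 39.2% higher and 38.5% lower over all genes tested. Among them ATG3, the enzyme that transfers ATG8 proteins to lipid, fell from 64.9 ± 3.95 to 28.3 ± 1.90 CPM (SD, n = 3), a log2-fold change of -1.20 (SE 0.070, with an adjusted p of 5.20e-11 in edgeR). ATG101 of the ULK1 complex was lower at -1.01, whereas RB1CC1, the scaffold of that complex, was higher at 0.88. ATG14 (0.92) and PIK3C3 (0.71) of the lipid kinase complex were higher, and BECN1 of the same complex, the partner freed by BH3 proteins, was lower (-0.52). The ATG8 proteases ATG4A (-0.56), ATG4C (-0.42) and ATG4D (-0.61) were lower, and ATG4B was not called (-0.0097).

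Of 6 fission and fusion genes, 0 were higher, 3 lower and 3 not called, beside 39.2% higher and 38.5% lower over all genes tested. MIEF1, an adaptor that recruits the fission GTPase, fell from 39.4 ± 2.21 to 17.6 ± 0.462 CPM (SD, n = 3), a log2-fold change of -1.16 (SE 0.075, with an adjusted p of 2.00e-10 in edgeR). DNM1L, the fission GTPase itself, and OPA1, the fusion GTPase of the inner membrane, had log2-fold changes of -0.39 and -0.38. FIS1 (-0.065), MFF (0.063) and MIEF2 (0.21) were not called.

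The genes most like BNIP3 and BNIP3L were sought among all genes tested by the root mean square difference of log2 CPM, each gene centred on its mean over the 6 libraries. For BNIP3 these were BMT2 (0.035), ENO2 (0.040), MR1 (0.050), ITGB2 (0.050) and TNFRSF11A (0.051). ENO2, a glycolytic enolase, stood at 344 ± 11.4 CPM in hypoxia and 99.8 ± 16.5 CPM in normoxia (SD, n = 3), near the values of BNIP3. For BNIP3L they were STC1 (0.041), HOXA13 (0.075), PTPRB (0.081), HLA-F-AS1 (0.090) and MMP2 (0.091). STC1, a secreted stanniocalcin, had 237 ± 18.3 CPM in hypoxia and 38.6 ± 9.69 CPM in normoxia, with a log2-fold change of 2.62 as for BNIP3L. BNIP3 and BNIP3L differed from each other by 0.46 on this measure, since the size of their rise differed. The likeness is a description over 6 libraries that share their conditions.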

How the data were processed

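Libraries were made from RNA with a SMARTER mRNA kit, 3 per condition. The authors deposited counts (whole numbers per gene, no normalization) and FPKM (counts scaled by gene length and library total); for the 8 genes both tables fit 1 gene length each. The submitters' processing notes list GRCm38 and mm10, mouse builds, although symbols and Entrez numbers are human; the aligner, counter, annotation and strand setting are not given in the sources used here, so no coordinates are given apart from RefSeq promoter windows. Libraries held 29637189 to 37278703 counts.

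The tests on counts used edgeR 4.0.16 under R 4.3.3 (TMM, filterByExpr, quasi-likelihood F test with condition as the only term, Benjamini-Hochberg over 14255 genes, threshold 0.05). The standard error is the size of the log2-fold change divided by the square root of F, with a prior count of 2 for log2 CPM. Alternatives were DESeq2 1.42.0 (size factors, Wald test), other filters, a block for the replicate number, leaving out each library, a log2-fold change of at least 1, and limma 3.58.1 on log2(FPKM + 1) where the mean FPKM reached 1. Replicates differed by more than sampling noise (chi-square per gene 4.90 to 10.8), so for well-counted genes the spread between libraries, more than depth, limits the precision. The tests were run on simulated counts first. Exon overlaps came from GENCODE v29. From each pathway list the 3 largest called changes were named; others are named to complete a count or a functional group and were chosen with their values seen. The 8 genes and the lists were chosen with earlier results of these data known. 1 gene of the lists is not reported here.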

Additional observations from a re-analysis of the deposited data

How the results depend on the processing

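All 8 receptors and partners kept their direction and their side of the threshold in all 113 results under the alternatives. The 20 pathway genes named by rule did so in all 240, but they were picked for the largest called changes, which made this likely. The other list genes were not followed singly. Apart from requiring a log2-fold change of at least 1, the alternatives gave 20 to 24 higher and 22 to 26 lower pathway genes. The highest adjusted p among the 8 was 0.0193, for SQSTM1 in limma on log2(FPKM + 0.1). Leaving out single libraries gave log2-fold changes between 1.65 and 1.86 for BNIP3, 2.50 and 2.85 for BNIP3L, -0.87 and -0.69 for FUNDC1, and -0.25 and -0.19 for SQSTM1. Requiring at least 10 counts in every library shifted the log2-fold changes of genes tested both ways by 0.077 (median), and SQSTM1 then had -0.14. Requiring a log2-fold change of at least 1 left 4338 of 11090 differentially expressed genes, 4 of the 6 higher and 0 of the 2 lower among the 8 genes, and 2 higher and 5 lower pathway genes, as fewer genes meet both conditions. The count of 4 includes GABARAPL1, which had 0.97 to 0.99 without a filter, without hypoxia or normoxia replicate 1, and in log2(FPKM + 1). With at least 10 counts in every library ATG101 had -0.94, while PINK1 (1.01) and NBR1 (1.003) passed 1. Without normoxia replicate 3, PINK1 (1.04) and ATG14 (1.01) passed it. The labels share replicate numbers, but libraries with the same number did not deviate together (correlations 0.018, -0.069 and 0.0012; 1 of 6 libraries correlated best with its own number); with the replicate block, 10875 genes were called and no call among the 8 genes changed. Sums with BNIP3 pseudogenes and GABARAPL3 were not run, as the table analysed here lists neither. Genes with a few counts per library, such as MAP1LC3C, are not resolved at this depth.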
